A study of Mus musculus with 28 samples.

Results

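The genes of the eukaryotic translation initiation factors (Eif) and elongation factors (Eef) were examined at their promoters in mouse embryonic stem cells. Members were taken by name, as the protein-coding genes of the mm10 build whose symbol starts with Eif or Eef followed by a number, which gave 71 of 21887 protein-coding genes. A member's promoter was the set of deposited regions whose centre lay within 1 kb of its transcription start site (TSS). Of the 71 genes, 70 had at least 1 such region, against 14056 of all 21887 genes. The exception was Eif4a3l1, a copy of the gene of a helicase of the eIF4A family, which had none and therefore no value. The 70 genes rest on 92 distinct regions, and Eef1akmt4 and the read-through gene Eef1akmt4-ece2 share a TSS and hence all their values.

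All cells were mESCs of the genotype FOXD3-iKO, an inducible knockout of the transcription factor FOXD3, grown in L2i medium, with a treatment time of 24 h for all groups. The assay was CUT&Tag: an antibody tethers a transposase beside a histone mark, and the DNA it cuts there is sequenced. H3K27ac, acetylation of histone H3 at a lysine of its tail, marks active promoters and enhancers and was profiled in asynchronous cells treated with the solvent EtOH (2 samples) or with 4HT (4-hydroxytamoxifen, which induces the knockout; 2 samples). H2BK120ac, an acetylated lysine of histone H2B and another mark of active chromatin, was profiled in groups coded ED, ET, TD and TT with 3 samples each. What the letters stand for is not stated in the labels, so the codes are kept as names, with no reading of which group was depleted of FOXD3. Another 12 of the 28 samples, from sorted cells, were not analysed here.

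The authors merged the samples of a group into 1 column of coverage scaled to sequencing depth (CPM). There is therefore no spread between replicates, no test was run, and every difference below compares merged columns. Fewer cells carrying a mark and less of the mark in each cell cannot be told apart in such bulk samples. The commonest value in a column was read as 1 fragment (a CPM of 0.165 for EtOH, 0.207 for 4HT, 0.445 for both ED and ET, 0.412 for TD, 0.415 for TT), and dividing a promoter's value by it gives its pile-up. A promoter was called well covered where the mean pile-up over the compared groups reached 5 fragments. A difference was counted where it reached 2-fold on log2(value + pseudocount), with pseudocounts of 0.2 for H3K27ac and 0.4 for H2BK120ac, which understates the change at low promoters. Intervals on ratios, called counting intervals, are 95% Clopper-Pearson intervals on pile-ups rounded to whole fragments. A pile-up is a mean coverage over the bases of the regions and not a number of distinct fragments. The intervals are thus only a rough guide to counting error and cover no other error. They also rest on this reading of 1 fragment, which is uncertain for H2BK120ac because its columns hold values down to 0.25 of it. At the promoter of Foxd3 itself the value was 1.02 in EtOH and 2.81 in 4HT for H3K27ac, and between 0 and 0.474 in the H2BK120ac groups. Coverage of a mark does not show whether the gene was deleted, so the labels were not checked by it. Among pluripotent stem cell markers, 7 of 9 promoters with a region were well covered in H3K27ac, against 0 of 5 fibroblast, 0 of 3 primitive endoderm, 0 of 4 trophectoderm and 0 of 3 neuroectoderm promoters.

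Translation begins when eIF2, loaded with GTP and the initiator transfer RNA, joins the small ribosomal subunit together with eIF1, eIF1A, eIF3 and eIF5. The eIF4 factors bind the cap of the messenger RNA and unwind its leader, and 4E-BP proteins hold back the cap-binding protein eIF4E. Elongation then uses eEF1A to bring transfer RNAs and eEF2 to move the ribosome. Most of these genes are expressed in every dividing cell, and stress kinases that phosphorylate eIF2 alpha, with the exchange factor eIF2B, set how fast initiation runs.

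The promoters of the 6 members with the highest mean H2BK120ac among those with a RefSeq promoter sequence are shown, because the contrasts of H2BK120ac below are best covered there, together with that of Eef2, whose promoter holds a TATA box. Each run is the 250 bases before the RefSeq TSS on GRCm38.p6, written 5′ to 3′ along the gene. Capitals mark matches, on either strand, to 9 motifs: the GC box, TATA box, CCAAT box, ETS core, E-box, YY1 motif, NRF1 motif, CGCG element and CRE. Their letters are given after the sequences, except those of the NRF1 motif, which is given by name. The runs lie at chr2:154892907-154893156 for Eif2s2 (minus strand), chr12:111537851-111538100 for Eif5 (plus strand), chr9:78481725-78481974 for Eef1a1 (minus strand), chr16:23107218-23107467 for Eif4a2 (plus strand), chr13:38659029-38659278 for Eef1e1 (minus strand), chr11:69672424-69672673 for Eif4a1 (minus strand) and chr10:81176381-81176630 for Eef2 (plus strand).
Eif2s2: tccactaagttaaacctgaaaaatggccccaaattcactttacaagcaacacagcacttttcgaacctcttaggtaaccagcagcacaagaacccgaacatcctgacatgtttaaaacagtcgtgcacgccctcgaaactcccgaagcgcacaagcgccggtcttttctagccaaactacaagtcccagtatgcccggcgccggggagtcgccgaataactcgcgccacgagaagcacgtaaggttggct
Eif5: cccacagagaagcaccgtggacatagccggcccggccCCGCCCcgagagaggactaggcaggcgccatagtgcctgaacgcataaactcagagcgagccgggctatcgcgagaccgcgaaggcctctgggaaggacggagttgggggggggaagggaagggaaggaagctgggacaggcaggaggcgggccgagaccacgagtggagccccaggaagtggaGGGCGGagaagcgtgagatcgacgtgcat
Eef1a1: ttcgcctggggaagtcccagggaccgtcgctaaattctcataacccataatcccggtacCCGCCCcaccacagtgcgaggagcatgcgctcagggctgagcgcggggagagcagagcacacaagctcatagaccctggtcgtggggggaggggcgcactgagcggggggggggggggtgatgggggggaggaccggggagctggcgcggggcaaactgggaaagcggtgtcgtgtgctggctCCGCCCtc
Eif4a2: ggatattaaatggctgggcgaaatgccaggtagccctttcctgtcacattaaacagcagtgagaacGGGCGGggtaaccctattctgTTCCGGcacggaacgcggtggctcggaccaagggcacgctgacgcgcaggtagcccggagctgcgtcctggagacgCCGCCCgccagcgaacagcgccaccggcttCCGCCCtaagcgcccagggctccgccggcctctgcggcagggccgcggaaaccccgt
Eef1e1: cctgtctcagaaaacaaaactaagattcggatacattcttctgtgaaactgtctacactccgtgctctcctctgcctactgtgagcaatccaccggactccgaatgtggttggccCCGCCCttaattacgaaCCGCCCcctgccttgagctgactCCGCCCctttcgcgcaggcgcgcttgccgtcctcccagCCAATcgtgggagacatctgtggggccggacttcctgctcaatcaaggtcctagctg
Eif4a1: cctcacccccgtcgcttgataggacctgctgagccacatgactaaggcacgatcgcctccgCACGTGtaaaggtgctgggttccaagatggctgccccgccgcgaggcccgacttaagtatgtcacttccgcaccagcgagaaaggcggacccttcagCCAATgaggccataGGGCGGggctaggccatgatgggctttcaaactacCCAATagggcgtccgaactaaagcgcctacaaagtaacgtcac
Eef2: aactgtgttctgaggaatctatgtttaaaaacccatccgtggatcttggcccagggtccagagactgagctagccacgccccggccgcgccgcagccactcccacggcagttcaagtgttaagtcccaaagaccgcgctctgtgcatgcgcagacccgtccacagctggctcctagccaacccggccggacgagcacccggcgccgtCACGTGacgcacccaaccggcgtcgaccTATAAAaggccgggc
Eif4ebp1 and Eif1a, which also stand among the 8 highest members, are not shown.

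Of the members with a region, 54 had a promoter sequence in the RefSeq table, and they were set against the 11411 promoters with a region and a sequence. The GC box, GGGCGG, was present in 39 of the 54 (72.2%, against 60.6% of all promoters). The E-box, CACGTG, was present in 12 (22.2%, against 8.55%). Among them were the cap-complex genes Eif4a1, Eif4g1 and Eif4h, the eIF3 genes Eif3f and Eif3k, and Eef2 with its kinase gene Eef2k. The others were Eef1akmt4, Eef1akmt4-ece2, Eef1aknmt, Eif1b and Eif5a2. Since Eef1akmt4 and Eef1akmt4-ece2 share a TSS, the same sequence enters these motif counts for both genes. The ETS core, CCGGAA, was present in 16 (29.6%, against 21.2%). The CCAAT box, named for its letters, was present in 16 as well (29.6%, against 36.6%). The TATA box, TATAAA, was found in 5 members (9.26%, against 6.24%): Eef2, Eif2s1, Eif2s3y, Eif3b and Eif3f. The YY1 motif, ATGGCGGC, was in 1 member, Eef1b2 (1.85%, against 1.74%). The palindromic NRF1 motif was also in 1, Eif3k (1.85%, against 1.59%). The CGCG element, CTCGCGAGA, was in 0 (1.29% of all promoters). The CRE, TGACGTCA, was in 0 as well (2.75%). None of these motifs contains another. A start of the kind that messenger RNAs with a terminal oligopyrimidine tract (TOP) have, a C followed by at least 4 pyrimidines beginning within 3 bases of the listed TSS, was present in 10 of 54 (18.5%, against 12.3%). Of the members with a well known TOP tract and a sequence, Eef1a1 and Eif3f matched, whereas Eef1b2, Eef2, Eif3a and Eif4b did not. The search thus misses known TOP messenger RNAs, and its share does not measure how many members have such a tract. Median GC content was 59.6% in the members and 60.4% in all promoters, and the median CpG observed over expected was 0.82 against 0.72. These matches are descriptions of letters and were not tested, and Eif2s2, among the best marked members, held none of the 9 motifs in this window.

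The members carried more coverage than the typical promoter in 5 of the 6 groups, by median. For H3K27ac the median member value was 0.766 in EtOH and 0.960 in 4HT, against 0.388 and 0.441 over all promoters with a region. For H2BK120ac it was 0.881 in TD and 0.756 in TT, against 0.461 and 0.486. In ET it was 0.519 against 0.445, and in ED both medians were 0.445, the value of 1 fragment. The median member stood at percentile 74.5 of all promoters in EtOH and 74.9 in TD, but at 47.4 in ED. Coverage was present at 97.1% of the 70 promoters for EtOH, 98.6% for 4HT, 87.1% for ED, 90% for ET, 95.7% for TD and 94.3% for TT. Over all promoters it ran from 80% for ET to 94.7% for EtOH. A pile-up of 5 fragments was reached by 33 members in EtOH, 33 in 4HT, 18 in TD, 10 in TT, 1 in ET and 0 in ED. Over all promoters the shares were 23.1%, 23%, 6.95%, 6.01%, 0.306% and 0.121% in that order, against 47.1%, 47.1%, 25.7%, 14.3%, 1.43% and 0% of the members.

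**Figure D1:**
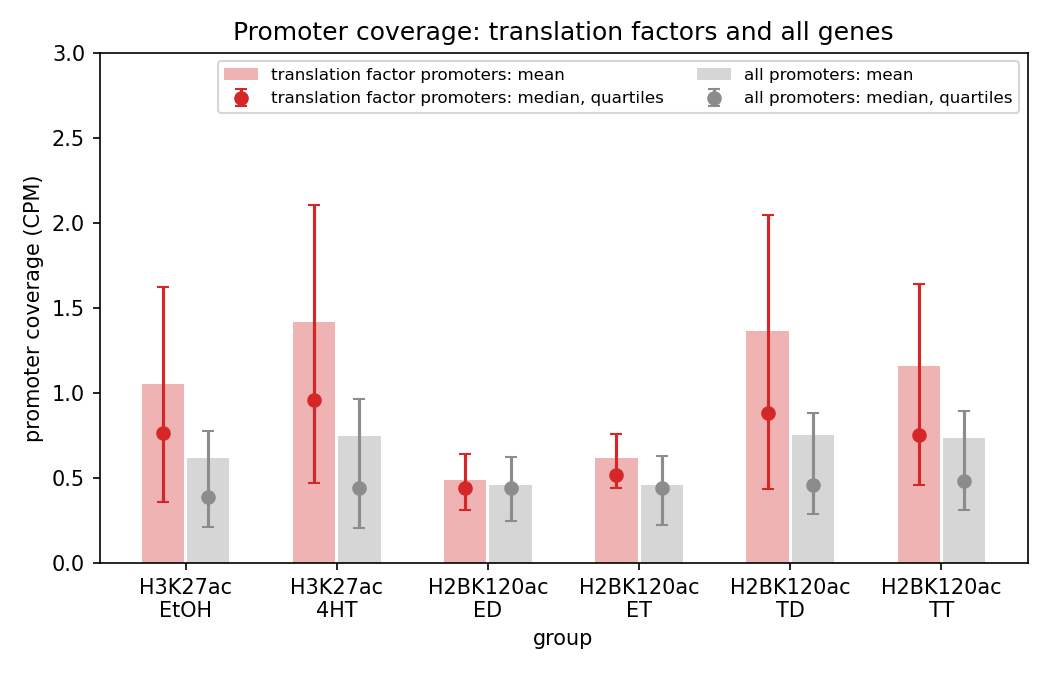
Promoter coverage in CPM (vertical axis, linear, from 0) in each of the 6 groups (horizontal axis), for the 70 translation factor promoters (red) and all 14056 promoters (grey). Bars are means over promoters, points are medians and whiskers run from the lower to the upper quartile; the red points lie above the grey ones except in ED, where both medians are 0.445.

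Coverage was absent from 1 or more groups at 16 of the 70 promoters. Eif3j2, a second gene for the eIF3j subunit, had coverage in 4HT alone, and there of 1 fragment. Eif4ebp3, an inhibitor of eIF4E, lacked it in EtOH, ED and ET, and Eif5a2, the second eIF5A gene, in ED, ET and TT. Eif3i, an eIF3 subunit, lacked it in ED and ET, and Eif4g3, a scaffold of the cap complex, in ED and TT. The other 11 lacked it in 1 group each: Eef2, Eif3c, Eif3g and Eef1akmt3 in ED, Eef1a2, Eif3d and Eif3l in ET, Eif1b and Eef1akmt1 in TD, Eif4e in TT and Eif2ak1 in 4HT. Near-identical copies occur in the family (Eif2s3x and Eif2s3y, Eif3j1 and Eif3j2, Eif1a and Eif1ax, Eef1a1 and Eef1a2), and how reads matching both copies were counted is not stated by any source used here, so the split of coverage within such a pair is uncertain.

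The region whose centre lay farthest from a member's TSS while still inside 1 kb was 941 bp from that of Eif3m, with values of 0.165 in EtOH, 0.530 in 4HT, 0.660 in ED, 0.516 in ET and none in TD or TT. The nearest one outside lay 1038 bp from that of Eif4a1, with 1.52, 1.64, 0.561, none, 2.03 and 1.97 in the same order. Of the 70 promoters, 17 (24.3%, against 14.6% of all) had the TSS of another gene on the opposite strand within 1 kb, such as Atp6v1d beside Eif2s1 and Serp1 beside Eif2a, and there the coverage of both genes cannot be told apart.

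**Figure D2:**
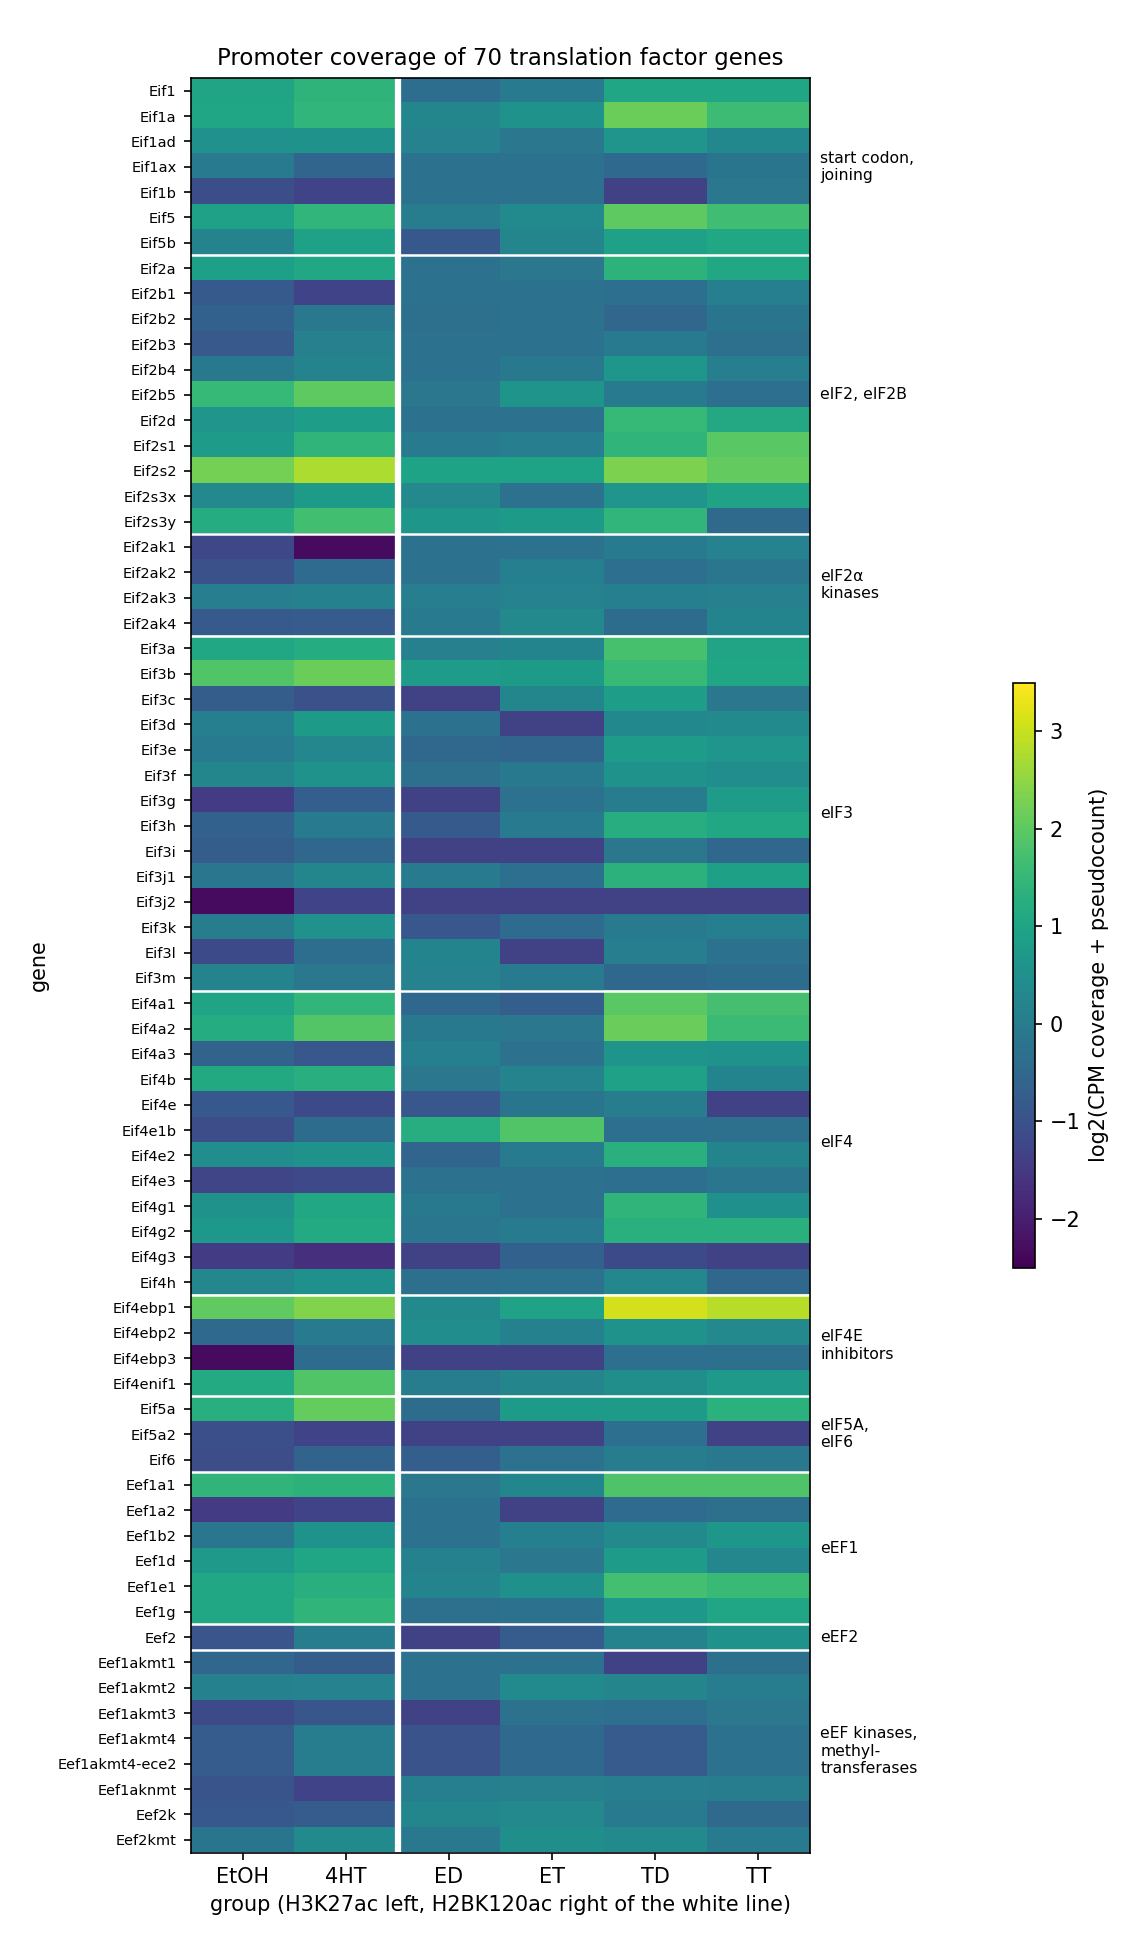
Coverage of every translation factor promoter as log2(CPM coverage + pseudocount) (colour, dark low, yellow high), with 1 row for each of the 70 genes grouped by role (labels on the right) and 1 column for each group, H3K27ac left and H2BK120ac right of the white line. The brightest cells lie at Eif2s2 in 4HT and at Eif4ebp1 in TD and TT, and the rows of the eIF2 alpha kinases and of the eEF kinases and methyltransferases hold no bright cell.

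H3K27ac in 4HT against EtOH addresses the effect of inducing the FOXD3 knockout. Of the 32 well-covered translation factor promoters, 0 were 2-fold higher and 0 were 2-fold lower in 4HT. Over all 3199 well-covered promoters, 2.97% were 2-fold higher and 0.156% 2-fold lower. In 31 of the 32 the value in 4HT was above that in EtOH, against 81.5% of all well-covered promoters. Over all 70 members, 2 were 2-fold higher (4.54% of all promoters), Eif3j2 and Eif4ebp3, both at 0 in EtOH, and 1 was lower (3.24%), Eif2ak1, at 0 in 4HT. Of the 70, 57 were higher by any amount, against 62.1%. A promoter at 1 fragment in both groups, such as Eef1a2 (0.165 in EtOH and 0.207 in 4HT), counts as higher through the value of 1 fragment alone. The median log2 fold was 0.43 in these members and 0.32 in all well-covered promoters, and 0.32 against 0.15 without the requirement of coverage (0.31 with members lacking coverage in a group set to 3 fragments). Values at promoters in general were higher in 4HT, and scaling removed much of the difference: with the columns centred on their medians the 32 members had a median of 0.26 against 0.15 with 27 above 0, and after quantile normalization 0.08 against 0.03 with 20 above 0.

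Among the subunits of eIF2, which carries the initiator transfer RNA, Eif2s2 (the beta subunit) had the highest H3K27ac of all members, 4.55 in EtOH and 6.53 in 4HT, a ratio of 1.44 (0.810 to 2.41). It was the highest in both groups, at percentile 99.8 of all promoters by its mean. Its middle region, chr2:154892799-154893076, which spans the TSS, alone had 6.27 and 9.82, so the level of the gene depends on the regions averaged. Eif2b5, the catalytic subunit of the exchange factor eIF2B, had 2.67 and 3.82, whereas Eif2b1, Eif2b2, Eif2b3 and Eif2b4, its partner subunits, lay between 0.207 and 0.936 in both groups. Eif2b5 thus stood above all 4 of its partners in either group.

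Eif3b, a scaffold subunit of eIF3, had 3.47 in EtOH and 4.23 in 4HT, the highest of the 14 eIF3 promoters, of which 5 were well covered. Eif4ebp1, the gene of 4E-BP1, had 3.90 and 4.95, with a ratio of 1.27 (0.685 to 2.32). The related Eif4ebp2 had 0.528 and 0.758, and Eif4enif1, which carries eIF4E into the nucleus, 2.03 and 3.46. Eif4a2, a helicase of the cap complex, had 2.11 and 3.49. As deposited, each was higher in 4HT by less than 2-fold, but after quantile normalization the log2 folds of Eif3b (-0.12) and Eif4ebp1 (-0.07) lay below 0.

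The largest log2 folds among the well-covered members were those of Eif5a (0.82), Eif5b (0.73), Eef1b2 (0.72), Eif4enif1 (0.71) and Eif3d (0.68). Eif5a, whose product carries hypusine and aids peptide bond formation, had 2.20 in EtOH and 4.02 in 4HT, a ratio of 1.83 (0.863 to 4.06). Eif5b, which joins the ribosomal subunits, had 0.941 and 1.70, and Eef1b2, the exchange factor of eEF1A, 0.708 and 1.29. At the other end stood Eef1a1 (-0.07), Eif1ad (0.01), Eif4b (0.14), Eif4e2 (0.14) and Eif3a (0.14). The sign of these 5 depended on the processing: the last 4 lay below 0 with median centring (-0.16 for Eif1ad, -0.04 for Eif4b, -0.03 for Eif4e2 and -0.03 for Eif3a), and Eef1a1 was at 0.07 with a plain mean over its regions. Eef1a1, the main eEF1A gene, had 2.49 in EtOH and 2.36 in 4HT, the only well-covered member with a lower value in 4HT as deposited. The counting interval of the ratio held 1 for each of the members whose ratio is given here. Eif2s3y, on chromosome Y, had 2.13 and 2.99, and its X-linked partner Eif2s3x 1.05 and 1.51, so this pair had nearly the same ratio (1.41 and 1.44).

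**Figure D3:**
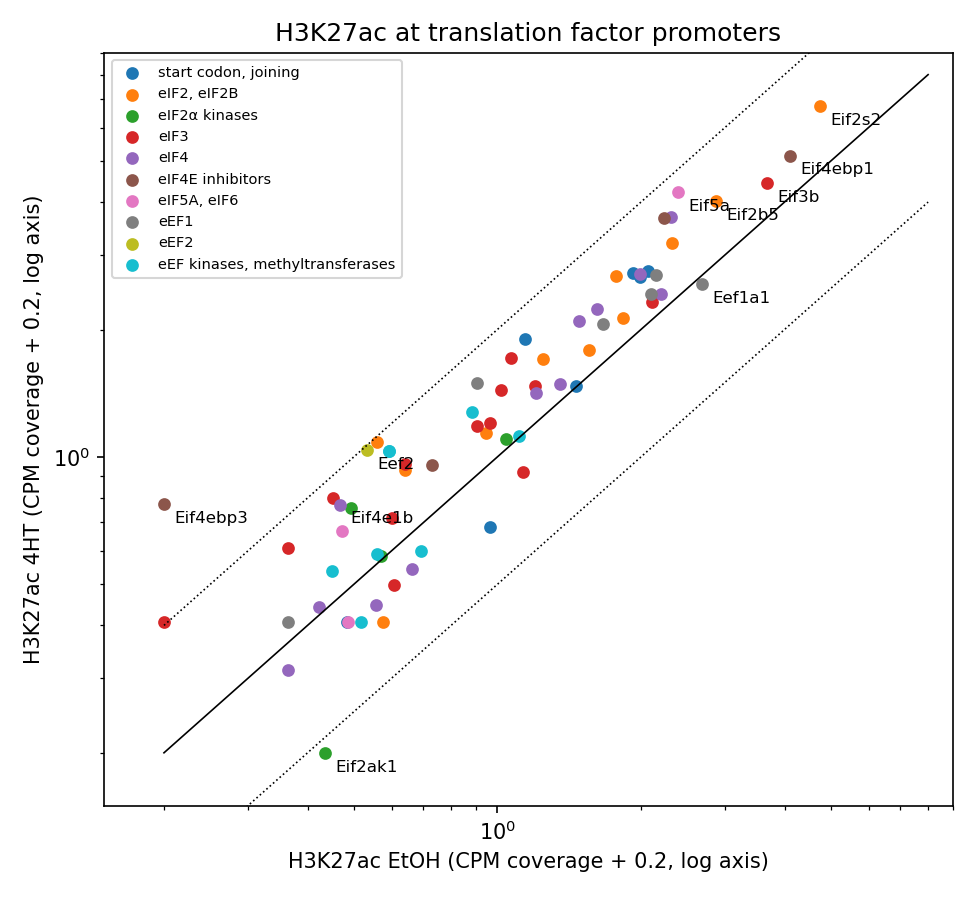
H3K27ac of the 70 translation factor promoters in EtOH (horizontal) and 4HT (vertical), in CPM coverage + 0.2 on log axes, with 1 point per gene coloured by role; the solid line marks equal values and the dotted lines 2-fold on this scale. Most points of high coverage lie between the solid line and the upper dotted line, and Eef1a1 lies just below the solid line.

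The roles differed in level. The median in EtOH was 1.68 for the 6 eEF1 genes, 1.36 for the 11 genes of eIF2, eIF2A, eIF2D and eIF2B, 1.28 for the 4 eIF4E inhibitors, 1.26 for the 7 genes of start codon selection and subunit joining, 1.08 for the 12 eIF4 genes and 0.736 for eIF3. It was 0.332 for the 4 eIF2 alpha kinases and 0.391 for the 8 kinases and methyltransferases of eEF1A and eEF2, and 0 promoters of either role were well covered. The 3 genes of eIF5A and eIF6 had the lowest median of the roles, 0.286, although 1 of them, Eif5a, was well covered. Eef2, the single gene of the translocating factor, had 0.333 in EtOH and 0.838 in 4HT. The 4 eIF2 alpha kinases were Eif2ak1 (0.236 and 0), Eif2ak2 (0.294 and 0.557), Eif2ak3 (0.844 and 0.902) and Eif2ak4 (0.370 and 0.384), in EtOH and 4HT. The sign of a role's median log2 fold depended on the scaling for the eIF2 alpha kinases (0.06 as deposited, -0.08 with median centring, -0.09 with quantile normalization) and for eEF1 (0.26, 0.10 and -0.01).

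For H2BK120ac, the pairs TD with ED and TT with ET differ in the first letter of the code and share the second. Most translation factor promoters had more H2BK120ac in the T-first group of each pair. It was 55 of the 70 in TD against ED (53.2% of all promoters) and 51 in TT against ET (55.2%). A promoter at 1 fragment in both groups of a pair counts as lower in the T-first group, through the value of 1 fragment alone. Eif2b1 is such a case, with 0.412 in TD and 0.445 in ED. These promoters lower the member counts and the shares over all promoters alike, and their part in the difference was not tested. For the eIF2 alpha kinases the median log2 fold of TD over ED was -0.01 (0.07 after quantile normalization). For the enzymes that modify eEF1A and eEF2 it was 0.18 with 5 of 8 above 0 (0.49 with 6 of 8 after quantile normalization), beside 0.08 over all promoters (0.19 after that normalization). Eef1akmt4 and Eef1akmt4-ece2, which share all values, both count among these 8. Few members were well covered in these contrasts, and a promoter reached that coverage almost only through TD or TT, so the count of such members shows little: 5 of 5 were 2-fold higher in TD than in ED, as were 88.8% of all well-covered promoters (0.548% lower, 99.2% above by any amount), and 2 of 2 in TT than in ET, against 86.6% (0.319% lower, 97.8% above by any amount). The 32 promoters well covered in H3K27ac, a choice that uses no H2BK120ac value and was made after the data were seen, were therefore followed. Of these, 19 were 2-fold higher in TD than in ED and 0 were 2-fold lower, against 34.4% and 1.84% of all promoters chosen in the same way. In all 32 the value in TD was above that in ED, against 78.5%. The median log2 fold was 1.35 in these members and 0.62 in all such promoters. In TT against ET, 16 of the 32 were 2-fold higher (31% of all) and 1, Eif2s3y, was 2-fold lower (1.84%), with medians of 0.94 and 0.58. The value in TT was the higher at 29 of the 32, against 76.9%. The members also had more H3K27ac than the other promoters chosen this way, with a median in EtOH of 1.76 against 1.32, and the part of that level in the difference was not tested.

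Over all 70 members, 29 were 2-fold higher in TD than in ED and 3 lower, against 20.4% and 9.72% of all promoters, and 55 were higher by any amount, against 53.2%. The 3 lower ones were Eef1akmt1, Eif1b and Eif4e1b, the first 2 of them at 0 in TD. In TT against ET 24 were higher and 3 lower, against 20.1% and 8.7%, and 51 were higher by any amount, against 55.2%. The 3 lower ones were Eif2s3y, Eif4e and Eif4e1b. With coverage missing from a group set to 3 fragments, the median log2 fold over the 70 was 0.49 in place of 0.75 for TD against ED and 0.20 in place of 0.41 for TT against ET. Under median centring and quantile normalization, 18 and 20 of the 32 were 2-fold higher in TD than in ED, against 32.2% and 34.4% of all promoters chosen the same way. In TT than in ET it was 12 and 14, against 25.4% and 33.7%. Without the 9 of the 32 that have an opposite-strand TSS within 1 kb, 15 of 23 were 2-fold higher in TD than in ED (33.3% of all promoters without one) and 13 in TT than in ET (30%).

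TD and TT both lay above ED and ET at 28 of these 32 promoters, against 60.3% of all promoters chosen the same way, and at 39 of the 70, against 31.6%. A 2-fold difference in both pairs was present at 13 of the 32 (19.9% of all promoters chosen the same way) and at 19 of the 70 (8.81%). The 4 exceptions among the 32 were Eif2b5, Eif2s3y, Eif4h and Eif5a. By role, the order held for 5 of 6 eEF1 genes, 10 of 14 eIF3 genes, 5 of 7 genes of start codon selection and joining, 7 of 12 eIF4 genes, 6 of 11 genes of eIF2, eIF2A, eIF2D and eIF2B, 3 of 4 eIF4E inhibitors and 1 of 3 genes of eIF5A and eIF6. It held for Eef2, for 1 of 4 eIF2 alpha kinases and for 0 of 8 eEF kinases and methyltransferases, of which Eef1akmt4 and Eef1akmt4-ece2 share all values. The reverse order, with TD and TT both below ED and ET, was seen at 0 of the 32 (7.38% of all chosen the same way) and at 5 of the 70 (15.9%): Eef1akmt1, Eef1aknmt, Eef2k, Eif3m and Eif4e1b. All of these but Eif4e1b were at 2 fragments or fewer in every H2BK120ac group. A promoter at 1 fragment in all 4 groups falls in the reverse order through the value of 1 fragment alone, which affects the shares over all promoters too.

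**Figure D4:**
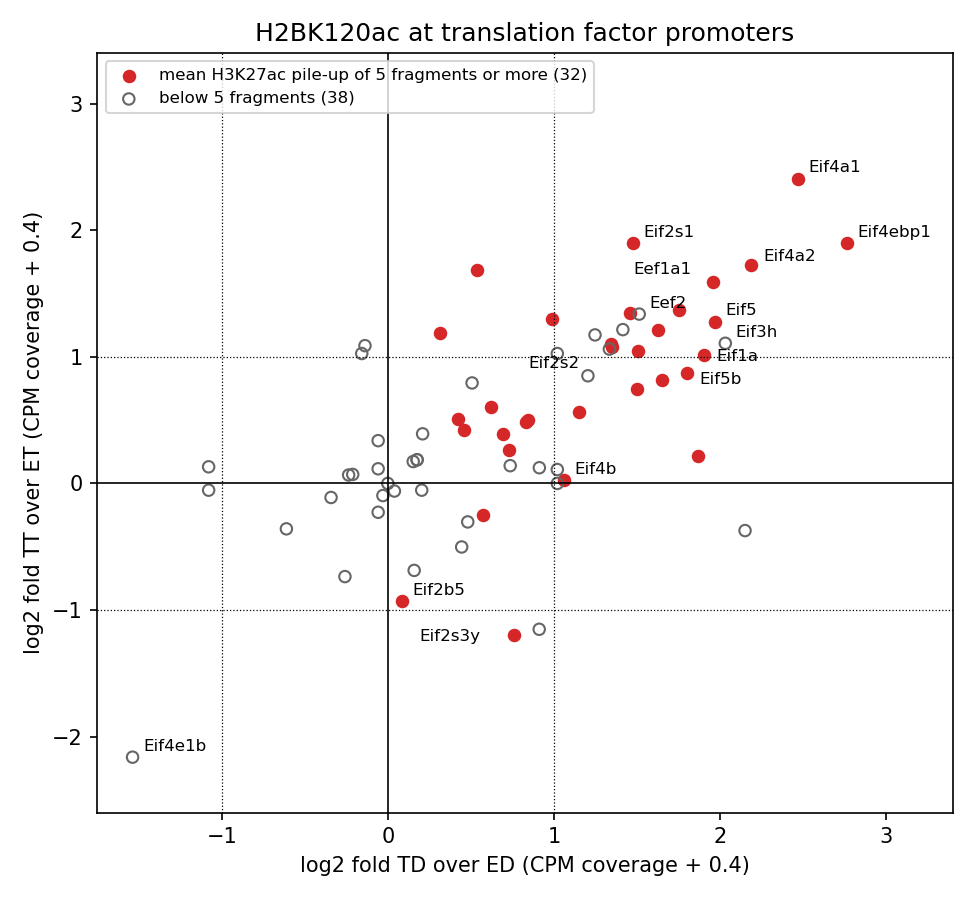
Log2 fold of H2BK120ac in TD over ED (horizontal) and TT over ET (vertical), each on CPM coverage + 0.4, for the 70 translation factor promoters. Filled points are the 32 promoters with a mean H3K27ac pile-up of 5 fragments or more, open points the other 38, and dotted lines mark 2-fold; most filled points lie in the upper right, with Eif4ebp1 and Eif4a1 farthest out, and Eif4e1b lies alone at the lower left.

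Eif4ebp1, at 2 regions (chr8:27260085-27260553 and chr8:27260721-27261660), had the highest H2BK120ac of the members. Its CPM was 0.874 for ED, 1.55 for ET, 8.27 for TD and 6.89 for TT. TD was 9.46 times ED (2.25 to 81.6) and TT 4.44 times ET (1.53 to 28.1), so both counting intervals lay above 1. In H3K27ac the same promoter differed by 1.27 times.

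The helicase genes Eif4a1 and Eif4a2, whose products unwind the leader of the messenger RNA, differed by several-fold. Eif4a1 had 0.309 for ED, 0.223 for ET, 3.53 for TD and 2.90 for TT, and TD was 11.4 times ED (1.15 to 365), with about 1 fragment in ED. Eif4a2 had 0.556, 0.513, 3.94 and 2.61, and TD was 7.10 times ED (1.32 to 401). The third helicase gene, Eif4a3, whose product marks spliced junctions, had 0.668, 0.445, 1.12 and 1.07. In all 3, both values of TD and TT lay above those of ED and ET, by a larger margin in Eif4a1 and Eif4a2 than in Eif4a3.

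Among the genes of start codon selection, Eif5, which triggers GTP hydrolysis by eIF2, had 0.628 for ED, 0.894 for ET, 3.63 for TD and 2.74 for TT. Eif1a, which helps the small subunit to scan, had 0.783, 1.11, 4.03 and 2.65, and Eif1, the gatekeeper of the start codon, 0.40, 0.560, 1.63 and 1.66. TD was 5.78 times ED for Eif5 (1.15 to 365) and 5.14 times for Eif1a (0.986 to 43.4). TD and TT both lay above ED and ET at these 3 genes, whereas Eif1b, the relative of Eif1, had 0.445, 0.440, 0 and 0.520.

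In eIF2, Eif2s2 had 1.57 for ED, 1.56 for ET, 4.61 for TD and 3.74 for TT, a ratio of 2.94 for TD over ED (0.754 to 10.95) and of 2.40 for TT over ET (0.697 to 16.0). Eif2s1, the alpha subunit that the stress kinases phosphorylate, had 0.560, 0.643, 2.27 and 3.49. Eif2a and Eif2d, other factors that can bring transfer RNAs to the ribosome, had 0.445, 0.515, 2.21 and 1.73, and 0.445, 0.445, 2.45 and 1.78, in the same order. At these 4 promoters TD and TT stood above ED and ET. Eif2b5 did not share this: its values were 0.518, 1.13, 0.576 and 0.404, although its H3K27ac was the fourth highest of the members.

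Of the elongation factors, Eef1a1 had 0.524 for ED, 0.793 for ET, 3.19 for TD and 3.20 for TT, with TD 6.08 times ED (0.992 to 328). Eef1e1, an auxiliary component of the aminoacyl-tRNA synthetase complex, had 0.759, 1.03, 2.89 and 2.55. Eef1g, a subunit of the eEF1B complex, had 0.417, 0.445, 1.22 and 1.68. Eef1a2, the eEF1A gene of muscle and neurons, had 0.445, 0, 0.358 and 0.415, at 1 fragment or less. Eef2 had 0, 0.189, 0.742 and 1.09, and no fold is given since all 4 values were at 3 fragments or fewer.

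Around the cap, Eif4g1 and Eif4g2, scaffold genes, had 0.546, 0.445, 2.28 and 1.02, and 0.503, 0.568, 2.08 and 2.06, in the order ED, ET, TD and TT. Eif4b, a helper of the helicase, had 0.520, 0.732, 1.52 and 0.751, and TT over ET lay below 0 with median centring or the nearest region alone. Eif4h, another helper, had 0.420, 0.445, 0.819 and 0.312 and was lowest in TT. Eif4e, the cap-binding protein itself, was at 0.634 or less in every H2BK120ac group and at 0.356 in EtOH and 0.247 in 4HT, and its relative Eif4e3 at 0.510 or less. Eif4enif1 had 0.634, 0.765, 0.983 and 1.26. Eif4e thus had a less marked promoter than its inhibitor gene Eif4ebp1, at percentile 46.6 of all promoters in EtOH and 62.5 in TD. The contrast does not extend to their relatives. Of the inhibitor genes, Eif4ebp2 and Eif4ebp3 were not well covered in H3K27ac and Eif4enif1 was, as was the eIF4E relative Eif4e2.

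Eif5a, with the fifth highest H3K27ac, had 0.368 for ED, 1.32 for ET, 1.31 for TD and 2.13 for TT, so TD did not exceed ET. Eif5b had 0.152, 0.777, 1.53 and 1.75 in that order. Eif6, which keeps ribosomal subunits apart, had 0.222, 0.445, 0.637 and 0.532, and stood below 2 fragments throughout.

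The kinases of eIF2 alpha, which respond to haem, double-stranded RNA, unfolded proteins and amino acid shortage, stood below 2 fragments in all 4 groups, from 0.373 for Eif2ak4 in TD to 0.854 for the same gene in ET. The kinase gene Eef2k, whose product inhibits eEF2, had 0.797, 0.846, 0.601 and 0.348 in the order ED, ET, TD and TT. The methyltransferase genes lay between 0 (Eef1akmt1 in TD, Eef1akmt3 in ED) and 1.01 (Eef2kmt in ET). No difference within these roles was resolved at this depth.

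The eIF3 complex, which holds the small subunit open for messenger RNA, had Eif3a (0.676, 0.748, 2.97 and 1.62) and Eif3b (1.35, 1.31, 2.50 and 1.65) as its best covered members. Eif3h had 0.175 for ED, 0.597 for ET, 1.95 for TD and 1.75 for TT, and Eif3j1 0.567, 0.404, 2.18 and 1.47. Their H3K27ac in EtOH was 0.441 and 0.707, at percentiles 55.1 and 71.7 of all promoters, below the level called well covered. Eif3m was the eIF3 gene with both TD and TT below ED and ET (0.709, 0.593, 0.326 and 0.375).

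Eif4e1b, an eIF4E relative of the germ line, stood apart in the other direction. Its single region, chr13:54783225-54783597, had 1.95 for ED, 3.25 for ET, 0.412 for TD and 0.415 for TT. It was the highest of the members in both ED and ET, at percentile 99.7 and above of all promoters there, and at 1 fragment in TD and TT. TD was 0.211 times ED (0.0047 to 2.34) and TT 0.128 times ET (0.00295 to 1.04), so both counting intervals held 1. H3K27ac there was 0.269 in EtOH and 0.572 in 4HT.

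ET against ED and TT against TD compare groups that differ in the second letter. In ET against ED, Eif4e1b was the 1 well-covered member, with a log2 fold of 0.63 and a ratio of 1.66 (0.445 to 8.16), so 0 were 2-fold higher or lower, against 0% of all 22 such promoters (63.6% above 0). Among the 32 promoters with H3K27ac coverage, 2 (Eif5a and Eif5b) were 2-fold higher in ET and 1 (Eif3d) lower, against 4.53% and 3.94%, and 23 were above 0, against 53.7%. Of the 32, 22 were above 0 with median centring (51.6% of all) and 22 with quantile normalization (49.1%). Over the 70 it was 5 higher and 3 lower, against 9.34% and 9.93%, with 48 above 0, against 49.2%. Both of these last figures include promoters at 1 fragment in both groups, such as Eif2b3 (0.4453 in ET and 0.4449 in ED). These count as above 0 through the value of 1 fragment alone. In TT against TD, 0 of 13 well-covered members were 2-fold higher and 0 lower, against 0.576% and 2.42% of all. Their median log2 fold was -0.28, against -0.16, and 2 of the 13 were above 0, against 36.4%. Eif2s1 (2.27 in TD and 3.49 in TT) and Eef1a1 (3.19 and 3.20, below 0 with median centring or a plain mean over its regions) were those 2, and Eif3a (-0.74), Eif1a (-0.54), Eif4a2 (-0.53), Eif3b (-0.50) and Eif2d (-0.39) were the lowest. Median centring left the median over the 70 members at -0.17 in place of -0.13, and quantile normalization at -0.04.

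Among the 32, 0 were 2-fold higher in TT than in TD (2.44%) and 2 were lower (3.47%), with 11 above 0 (46.1%). Over the 70, 2 were higher (8.14%) and 4 lower (7.85%), with 30 above 0 (47.8%). Promoters at 1 fragment in both groups, such as Eif4ebp3 (0.412 in TD and 0.415 in TT), again count as above 0. Eif2s3y, the Y-linked gene of eIF2 gamma, was 1 of the 2 lower promoters among the 32, with 1.21 for ED, 1.31 for ET, 2.31 for TD and 0.344 for TT, the last at about 1 fragment. The other was Eif4e2, an eIF4E relative, with 2.09 in TD and 0.761 in TT. Of the other genes on chromosome Y with a promoter region, Uty had 1.92 in TD and 1.12 in TT, and Ddx3y 0.720 and 0.515. Eif2s3x had 1.15 and 1.53. The low value of Eif2s3y in TT rests on a single region of 158 bp.

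Across the 70 promoters the level of H3K27ac in EtOH and that of H2BK120ac in TD had a Spearman rho of 0.77, against 0.63 over all promoters; TD and TT had 0.81 against 0.71, and ED and TD 0.40 against 0.38. These describe the columns, which share the regions and, within a mark, the processing. ED and ET had a rho of 0.57 against 0.41. In ED 5 and in ET 11 of the 70 members had 2 fragments or more, against 9.06% and 9.26% of all promoters.

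The messenger RNAs of 10 members carry a well known TOP tract (Eef1a1, Eef1b2, Eef1d, Eef1g, Eef2, Eif3a, Eif3e, Eif3f, Eif3h and Eif4b). Of these, 7 were well covered in H3K27ac, 3 of the 7 were 2-fold higher in TD than in ED and 2 in TT than in ET, beside 34.4% and 31% of all promoters with that coverage, shares near the background. The median log2 fold of the 10 in 4HT against EtOH was 0.31, near that of all members (0.32), and in TD against ED 1.15 against 0.75. The latter pair is not matched for coverage, since 7 of the 10 but 32 of the 70 members were well covered in H3K27ac. Those 32 had a median of 1.35, and 19 of them were 2-fold higher in TD than in ED. Of 48 further genes of the translation machinery outside the naming rule, 46 had a promoter region and 19 were well covered in H3K27ac. In 4HT against EtOH 1 of these 19 was 2-fold higher (Ddit3, a stress response factor, 1.09 and 2.48; 2.97% of all) and 0 were lower (0.156%). In TD against ED 9 of the 19 were 2-fold higher and 0 lower, beside 34.4% and 1.84% of all promoters with that coverage. In TT against ET it was 7 and 0, beside 31% and 1.84%, a share near the background. All 3 well-covered genes of termination and recycling were among the 9: Etf1, the release factor that reads stop codons, had 0.498 for ED, 0.445 for ET, 5.71 for TD and 2.64 for TT; Abce1, which splits ribosomes, had 1.04, 0.630, 6.08 and 2.90; and Gspt1, the partner of Etf1, 0.445, 0.871, 2.22 and 2.35. Atf4, the transcription factor translated when eIF2 alpha is phosphorylated, had 0.856, 0.924, 3.70 and 2.68. The 1 well-covered promoter of a mitochondrial factor and the 1 of a signalling kinase were 2-fold higher in neither contrast.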

How the data were processed

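CUT&Tag coverage of H3K27ac (2 groups) and H2BK120ac (4 groups) was compared at translation factor promoters. The deposited values are coverage signal in CPM over 127646 regions, per the file headers and table names, with the replicates of each group merged by the authors into 1 column. The submitters' processing notes name mm10, featureCounts and DESeq2 without a role; no source used here states the aligner or the coverage program. A further 16 value columns match no sample and were not used. A region without a number was counted as 0. Since no listed value falls below that of a fragment or 0.25 of it, bases with no coverage seem absent from the regional means, and sparse regions then read too high.

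The TSS was the 5′-most of the RefSeq promoter table on GRCm38.p6 (17492 genes, 55 members) or, failing that, the gene span end nearest to a deposited 5 kb TSS window (3980 genes, 16 members). Where both could be read, for 16405 genes, their strands matched in 96.7%. A gene's value is the width-weighted mean over regions within 1 kb. The planned pseudocounts are the 25th percentile of positive values. Implied depth was 6.08 and 4.82 M (mega) fragments for EtOH and 4HT, and 2.25, 2.25, 2.43 and 2.41 M for ED, ET, TD and TT. Named genes are the 8 highest members per mark, the 5 largest folds in each direction among well-covered members per comparison, and members within their role. The comparison of members by neighbouring TSS, by missing coverage and by H3K27ac coverage was added after seeing the data. The members and gene lists were chosen with earlier results of these data known. The 2-fold rule was checked on simulated pile-ups. The outcome is not given here, so this check lends no weight to the counts. In the simulation, changes larger than 2-fold were placed only at promoters with a mean pile-up of at least 5 fragments. The check does not cover smaller changes or promoters below that pile-up, where most H2BK120ac folds of the members lie. Python 3.11.15, pandas 2.3.3, numpy 2.4.6, scipy 1.17.1 and matplotlib 3.10.9 were used.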

Additional observations from a re-analysis of the deposited data

How the results depend on the processing

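No paired analysis was possible because each group has 1 merged column with no replicate number, and for the same reason no replicate could be left out. Depth limits the H2BK120ac results: of the 70 members, 2 fragments or more were reached by 5 (ED), 11 (ET), 37 (TD) and 32 (TT). These are 7.14%, 15.7%, 52.9% and 45.7% of the members, against 9.06%, 9.26%, 27.2% and 27.6% of all promoters. The sign of a named gene's log2 fold differed from that reported in 33 of 1555 recomputed values, 14 of them in H3K27ac (9 genes), and 0 of the 33 concerned a gene 2-fold different as reported. Of the recomputed counts, medians and shares with coverage 230 stayed within and 37 left their tolerance (1.5 times for a count, the order-statistic interval for a median, the binomial interval for a share). In H3K27ac the median log2 fold over the 70 members (0.32) was 0.22 with a pseudocount of 1, 0.15 with median centring and 0.10 with quantile normalization, and the cause was not tested. The 0 well-covered members counted as higher became 7 at 1.5-fold (21.6% of all such promoters) and 2 without a filter, where 1 was lower. In TD against ED the 5 members higher became 3 within 500 bp, 2 with the nearest region alone, 1 with quantile normalization, 15 at 3 fragments, 1 at 10 fragments, 29 without a filter (3 lower) and 19 with the H3K27ac filter. In TT against ET the 2 members higher became 5 with the highest region alone, 1 with double the pseudocount, a pseudocount of 1, median centring, quantile normalization, 10 fragments or 3-fold, 10 at 3 fragments (1 lower), 24 without a filter (3 lower) and 16 with the H3K27ac filter (1 lower). In ET against ED the 0 higher became 1 at 1.5-fold, 5 without a filter (3 lower) and 2 with the H3K27ac filter (1 lower). In TT against TD the 0 lower became 2 at 3 fragments, 1 at 1.5-fold, 4 without a filter (2 higher) and 2 with the H3K27ac filter. Counts at other fragment or fold limits and without a filter differ by construction. In TD against ED and TT against ET, 88.8% and 86.6% of all well-covered promoters were 2-fold higher. Without a filter it was 20.4% and 20.1% of all promoters, and with the H3K27ac filter 34.4% and 31%. The remaining H2BK120ac counts stand here without the share over all promoters and are no result about the members. Among named genes, the Eif2s2 level in 4HT was 9.82 with the nearest or the highest region alone, and Eif4a1 in ED was 0 with the highest region alone.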
